A study of Mus musculus with 18 samples.

Results

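Enzymes and carriers through which the liver makes, stores, burns and releases glucose were followed in the livers of 3 mouse lines with altered NRF1, NRF2 or KEAP1. The set held 8 named genes: Fbp1, Pck1, Pklr, Pfkfb1, Gys2, Pygl, Slc2a2 and Khk. The members were the non-control array probes whose transcript name mapped to these symbols. Of the 8 genes 7 were measured, with 9 probes, among 17721 genes tested. Pck1, the phosphoenolpyruvate carboxykinase of gluconeogenesis, was not analysed here, because no probe of the files used here mapped to it.

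Liver samples, 18 in all, came from female mice at 6 weeks of age, in 6 groups of 3, each on its own single-colour array. Nrf1 CKO mice carried the genotype Nrf1(dN/-)::Alb-Cre, in which Cre recombinase is driven by the albumin promoter, active in hepatocytes. The Nrf1 Control mice were Nrf1(dN/+) and carried the dN allele too, but the labels name neither the minus allele nor Alb-Cre for them, so by these genotypes the groups also differed in cells where Cre is not active. Nrf2 KO mice were Nrf2(-/-), a loss in every tissue, and Nrf2 Control mice were Nrf2(+/+). Keap1 KD mice were Keap1(Kd/-), and the Keap1 Control mice, Keap1(Kd/+), also carried the knockdown allele. Strain was given as Mixed for the Nrf1 and Keap1 lines and as C57BL/6 for the Nrf2 line. Nothing in the labels shows that the 3 samples of a group came from different animals. The p-values therefore reflect sample-to-sample spread that may be technical.

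In the fasted state the liver makes glucose from lactate, glycerol and amino acids and releases it from glycogen, and after a meal it takes glucose up, stores it as glycogen and burns the excess. FBP1 and PCK1 catalyse committed steps of gluconeogenesis, pyruvate kinase (Pklr) closes glycolysis, and the bifunctional enzyme of Pfkfb1 makes and removes the signal metabolite that favours glycolysis over gluconeogenesis. Glycogen is built by the synthase of Gys2 and broken down by the phosphorylase of Pygl. GLUT2 (Slc2a2) carries glucose across the hepatocyte membrane in both directions, and ketohexokinase (Khk) starts the breakdown of fructose. NRF1 (gene Nfe2l1) and NRF2 (gene Nfe2l2) are transcription factors of one family whose target sites are antioxidant response elements, and KEAP1 directs NRF2 to degradation.

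Levels below are log2 signals after scaling to the 75th percentile of the array, so a value of one probe is compared only with the same probe on other arrays. On each array 21668 to 28213 of the 43379 non-control spots exceeded background by the scanner's criterion, and arrays of one group correlated at 0.972 to 0.993 across genes. The signal of each targeted gene was lower in its own line. Nfe2l1 was not well above background on any Nrf1 CKO array and was at least 469-fold lower there, against the lowest signal above background (limma adjusted p = 5.88e-15). Nfe2l2 lay at −5.90 to −3.16 in Nrf2 KO, where 1 of 3 arrays was above background, and at 3.13 to 3.52 in Nrf2 Control livers. Keap1 had a log2 fold change of −2.39 in Keap1 KD. All 7 hepatocyte markers tested were above background on all 18 arrays. The 9 member probes were likewise well above background on all 18 arrays, and none was saturated. With 3 arrays in a group, precision is limited by their number.

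In Nrf1 CKO livers 3 of the 7 measured genes fell and none rose. Gys2 was 3.02-fold lower, Khk 2.09-fold lower and Fbp1 1.74-fold lower than in Nrf1 Control livers. Over all genes, limma called 18.9% in this comparison, 10.9% lower and 7.99% higher. The members' log2 fold changes were negative for 7 of 7, with a median of −0.78, against −0.09 over all genes tested. For 5 of them the 3 CKO arrays lay below the 3 control arrays without overlap, as was the case for 28.1% of all genes in that direction.

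**Figure D1:**
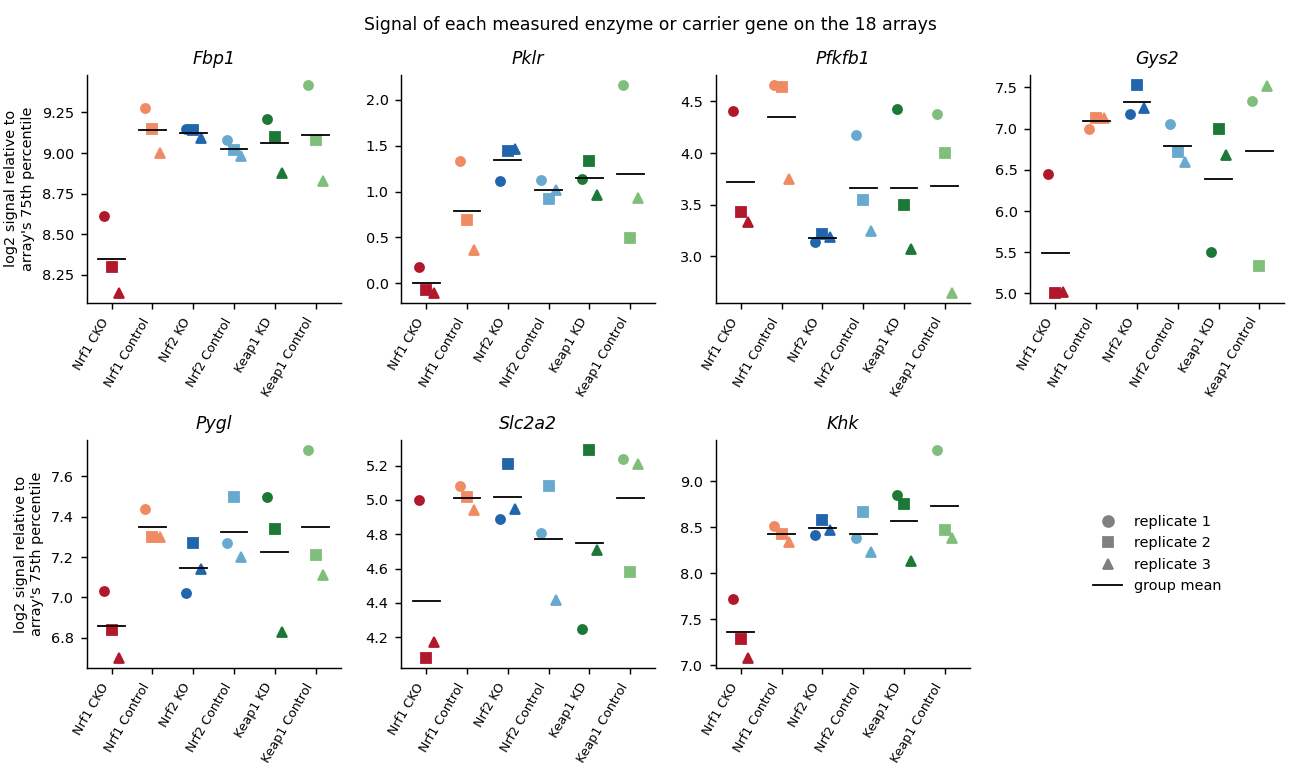
Level of the 7 measured genes on each of the 18 arrays (vertical axes, log2 signal scaled to the array's 75th percentile, with a separate range for each gene; horizontal axis, the 6 groups; points, arrays; lines, group means). Fbp1 lay at 8.14 to 8.61 on the Nrf1 CKO arrays and at 9 to 9.28 on the Nrf1 Control arrays, while Gys2 was low on 1 Keap1 KD and 1 Keap1 Control array as well.

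Fbp1 stands for gluconeogenesis, where its product removes a phosphate from fructose bisphosphate. Its levels were 8.61, 8.30 and 8.14 on the Nrf1 CKO arrays, against 9.28, 9.15 and 9 on the Nrf1 Control arrays. The groups did not overlap, and the lowest of the control arrays stood above the highest CKO array. The mean was 8.35 ± 0.241 in Nrf1 CKO and 9.14 ± 0.142 in Nrf1 Control livers (SD, n = 3 each). The log2 fold change of −0.80 (SE 0.167, 95% interval −1.15 to −0.44) passed limma's test (adjusted p = 0.00635). After quantile normalization the call was lost (−0.25, adjusted p = 0.13), and likewise when slide was a block (−0.65, adjusted p = 0.204). In the other 4 groups the mean of Fbp1 ran from 9.03 to 9.12, and the 3 Nrf1 CKO arrays lay below all arrays of the other groups.

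The promoters of Fbp1 and Khk are shown because these are the called genes for which RefSeq sequence was at hand, and because both NRF1 and the glucose-sensing factor ChREBP are known to act through short DNA elements. Promoter windows of 300 bases (250 before and 50 after the annotated start, RefSeq, build GRCm38.p6) were read for 7 of the 8 genes, in 11 windows, and none was at hand for Gys2. Each line runs 5′ to 3′ on the strand of the gene, and capitals mark any match, on either strand, to the antioxidant response element core TGANNNNGC, to the E box CACGTG or to the core of the cyclic AMP response element, TGACG.
Fbp1, chr13:62888233-62888532, minus strand: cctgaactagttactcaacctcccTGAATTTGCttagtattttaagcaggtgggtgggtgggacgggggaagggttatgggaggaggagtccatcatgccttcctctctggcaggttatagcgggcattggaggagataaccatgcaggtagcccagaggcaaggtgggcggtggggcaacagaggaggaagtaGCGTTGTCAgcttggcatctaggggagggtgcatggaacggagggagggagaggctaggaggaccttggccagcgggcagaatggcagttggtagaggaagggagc
Khk, chr5:30921309-30921608, plus strand: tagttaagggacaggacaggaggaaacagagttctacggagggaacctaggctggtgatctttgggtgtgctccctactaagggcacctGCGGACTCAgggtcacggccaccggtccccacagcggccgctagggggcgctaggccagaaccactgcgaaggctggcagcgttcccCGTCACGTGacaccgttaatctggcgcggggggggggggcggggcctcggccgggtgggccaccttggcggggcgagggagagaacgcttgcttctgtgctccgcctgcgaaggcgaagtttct
The Fbp1 window held 2 matches to TGANNNNGC. The Khk window held 1 match to each motif, with the matches to CACGTG and TGACG overlapping by 2 bases. TGANNNNGC was present in 5 of the 11 windows of these genes and in 41.3% of all 32851 promoter windows of the same length. CACGTG was found in 1 of the 11 and in 7.15% of all windows, and TGACG in 3 of the 11 and in 20.8% of all. These are matches of letters and do not show that a factor binds there.

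The genes of glycolysis were less certain. Pklr had levels of 0.18, −0.07 and −0.10 on the Nrf1 CKO arrays, against 1.33, 0.69 and 0.36 on the Nrf1 Control arrays. All CKO arrays were below all controls, but the controls were spread over almost 1 log2 unit, and the difference of −0.78 (SE 0.327) did not pass limma's test (adjusted p = 0.102). It passed when scan date was a block (−0.78, adjusted p = 0.034) and with array quality weights (−0.98, adjusted p = 0.00583), weights under which all 7 genes passed. Pfkfb1 had levels of 4.41, 3.43 and 3.33 in Nrf1 CKO, against 4.66, 4.64 and 3.75 in Nrf1 Control livers. The groups overlapped and the difference of −0.63 (SE 0.45, limma adjusted p = 0.339) was within the spread between arrays. Set beside Nrf1 Control replicate 3, the control that shared a slide with the 3 CKO arrays, the CKO mean was lower by 0.35 for Pklr and by 0.03 for Pfkfb1.

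Of the glycogen genes the synthase passed the test and the phosphorylase did not. Gys2 had levels of 6.45, 5.01 and 5.02 on the Nrf1 CKO arrays, against 7, 7.13 and 7.13 on the Nrf1 Control arrays. The controls lay close together, while CKO replicate 1 stood nearer to the controls than to the other CKO arrays. The mean was 5.49 ± 0.83 in Nrf1 CKO and 7.09 ± 0.0783 in Nrf1 Control livers (SD, n = 3 each), a log2 fold change of −1.59 (SE 0.516, 95% interval −2.69 to −0.49, limma adjusted p = 0.0432). This was the widest change of the set and also the least settled call. It was lost without any of the Nrf1 Control arrays 1, 2 or 3 (adjusted p = 0.106, 0.0944 and 0.0821) and without CKO replicate 2 or 3 (−1.35 and −1.36, adjusted p = 0.159 and 0.17), and held without CKO replicate 1 (−2.07, adjusted p = 0.0121). It was also lost after quantile normalization (−1.19, adjusted p = 0.144), without a filter on dim probes (adjusted p = 0.0694) and when slide (−1.64, adjusted p = 0.282) or scan date (adjusted p = 0.0506) was a block. Pygl had levels of 7.03, 6.84 and 6.70 in Nrf1 CKO, against 7.44, 7.30 and 7.30 in Nrf1 Control livers. Its groups did not overlap, and the difference of −0.49 (SE 0.193) did not pass limma's test (adjusted p = 0.0847).

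For entry of sugars, Khk fell and Slc2a2 did not pass the test. Khk had levels of 7.72, 7.29 and 7.08 on the Nrf1 CKO arrays, against 8.51, 8.43 and 8.34 on the Nrf1 Control arrays. The mean was 7.37 ± 0.325 in Nrf1 CKO and 8.43 ± 0.084 in Nrf1 Control livers (SD, n = 3 each), with every CKO array below every control. The log2 fold change was −1.06 (SE 0.253, 95% interval −1.6 to −0.52, limma adjusted p = 0.0118), and a second Khk probe gave −1.14 (limma adjusted p = 0.00761). The call held after quantile normalization (−0.58, adjusted p = 0.0292). It was lost when slide was a block (−0.97, adjusted p = 0.171), without Nrf1 Control replicate 1 (−1.02, adjusted p = 0.051) and without CKO replicate 2 (−1.02, adjusted p = 0.051) or 3 (−0.92, adjusted p = 0.0707). Slc2a2 had levels of 5, 4.08 and 4.17 in Nrf1 CKO, against 5.08, 5.02 and 4.94 in Nrf1 Control livers. CKO replicate 1 lay among the controls and the other CKO arrays well below them. The difference of −0.60 (SE 0.286, limma adjusted p = 0.151) passed without CKO replicate 1 (−0.89, adjusted p = 0.0344), and a second probe gave −0.83 (adjusted p = 0.159).

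**Figure D2:**
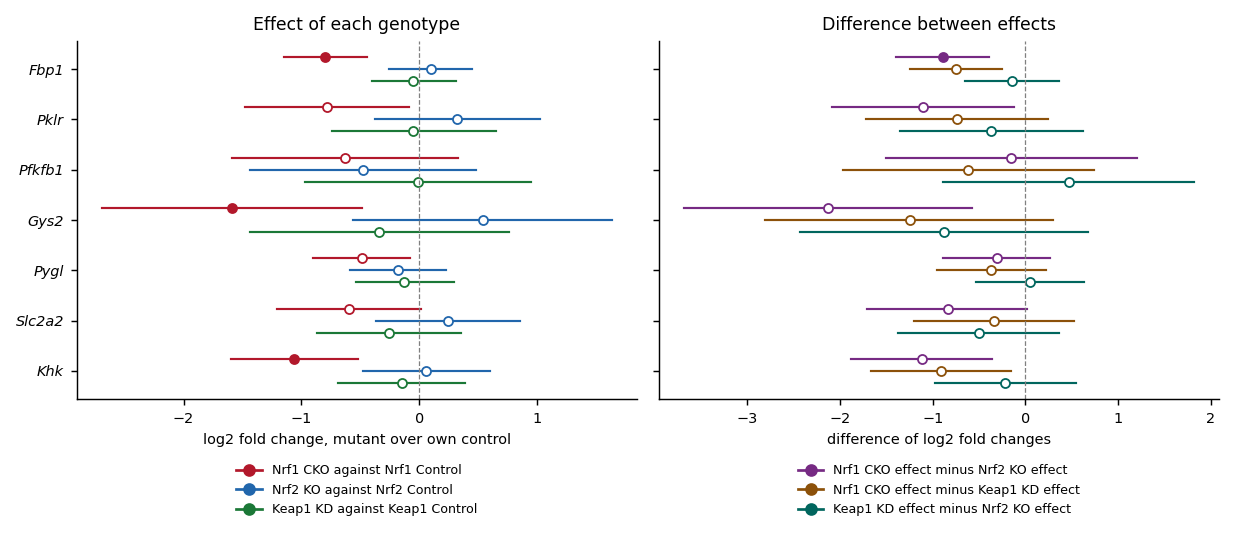
Log2 fold change of each measured gene in the 3 genotypes (left) and the difference between these effects (right), with 95% intervals from the limma fit as bars; filled points passed the test at an adjusted p under 0.05. In Nrf1 CKO the filled points are Gys2 at −1.59, Khk at −1.06 and Fbp1 at −0.80, and on the right Fbp1 at −0.89 for Nrf1 CKO minus Nrf2 KO.

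Slide and signal level moved with the Nrf1 groups. The 3 CKO arrays lay on 1 slide with Nrf1 Control replicate 3, and the other controls on another. Beside that control alone, the CKO mean was lower by 0.65 for Fbp1, by 1.64 for Gys2, by 0.97 for Khk, by 0.45 for Pygl and by 0.53 for Slc2a2. The 75th percentile used for scaling was 305.6 to 403.8 intensity units on the CKO arrays and 193.4 to 251.3 on the Nrf1 Control arrays. Before scaling, Fbp1 had an intensity of 109000 to 119000 on the CKO arrays and of 120000 to 129000 on the controls, and Pygl was brighter on the CKO arrays (40000 to 41800) than on the controls (33300 to 39800). Gys2 had 11200 to 26800 on the CKO arrays and 24800 to 35300 on the controls, and Khk had 54500 to 64400 against 70500 to 81500. The remaining members overlapped between the groups before scaling. Slc2a2 had 5870 to 9760 on the CKO arrays against 6540 to 7740 on the controls. Pfkfb1 had 3740 to 6500 against 3390 to 5270, and Pklr 332 to 377 against 323 to 485.

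Bright genes in general were lower in Nrf1 CKO, so each member was set beside the genes whose mean level lay within 0.5 log2 units of its own, a description added after the data were seen. Around Gys2 the 298 genes of like level had a median of −0.48 and 35.2% of them were called lower, and 2.01% had a lower value than Gys2. Around Khk the 111 genes had a median of −0.48, with 39.6% called lower, and 5.41% were below Khk. The 69 genes around Fbp1 had a median of −0.48, with 36.2% called lower, and 5.8% were below Fbp1. Pygl, at −0.49, stood at the median of its 236 neighbours (also −0.49). Pklr, a dimmer gene, was at −0.78 where its 1855 neighbours had a median of −0.10. The part of signal level in these results was not tested.

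Neither Nrf2 KO nor Keap1 KD gave a call among the 7 genes. In Nrf2 KO livers limma called 0 of 7, with 0 at an unadjusted p under 0.05, and 0.0621% of all genes. The median of the members was 0.10, against 0.01 over all genes. Gys2 had levels of 7.18, 7.53 and 7.25 in Nrf2 KO, against 7.06, 6.71 and 6.59 in Nrf2 Control livers. The KO arrays all lay above the controls, and the difference of 0.54 had a 95% interval of −0.56 to 1.63 (limma adjusted p = 0.834). Fbp1, at 9.15, 9.14 and 9.09 in Nrf2 KO against 9.08, 9.02 and 8.98 in Nrf2 Control livers, was separated too, by 0.10 (95% interval −0.26 to 0.45, limma adjusted p = 0.912). Pfkfb1 lay lower, with 3.14, 3.22 and 3.19 in Nrf2 KO against 4.18, 3.55 and 3.25 in Nrf2 Control livers, a difference of −0.48 (95% interval −1.44 to 0.48, limma adjusted p = 0.826). Such separation without overlap was seen for 9.81% of all genes in the higher and 11% in the lower direction. No slide or scan date held both Nrf2 groups, so that batch and genotype cannot be told apart within that line.

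The remaining members did not pass in Nrf2 KO either. Pklr averaged 1.34 ± 0.196 in Nrf2 KO and 1.02 ± 0.0978 in Nrf2 Control livers (SD, n = 3 each), with 1 KO array, at 1.11, inside the range of the controls (0.92 to 1.12). Its difference of 0.32 had a 95% interval of −0.38 to 1.02. Slc2a2, Pygl and Khk overlapped between the groups, at differences of 0.24 (95% interval −0.37 to 0.85), −0.18 (−0.59 to 0.23) and 0.06 (−0.48 to 0.60).

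In Keap1 KD livers limma again called 0 of 7, with 0 at an unadjusted p under 0.05, where 5.52% of all genes were called. The 7 values ran from −0.34 to −0.01, with a median of −0.13 against 0 over all genes, and none was separated between the groups (11.4% of all genes were separated in the lower direction). The sign of 6 of these values turned when arrays were scaled to their median, which moved the median of all genes to 0.29. Gys2 was the most uneven member, with 5.50, 7 and 6.68 on the Keap1 KD arrays against 7.34, 5.33 and 7.52 on the Keap1 Control arrays. One array of each group was far below the others, which left a difference of −0.34 with a 95% interval of −1.44 to 0.76 (limma adjusted p = 0.828).

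The glycolysis genes were spread too, Pklr on the Keap1 Control arrays and Pfkfb1 in both Keap1 groups. Pklr had 1.14, 1.33 and 0.96 in Keap1 KD against 2.16, 0.49 and 0.93 in Keap1 Control livers, so that the controls alone spanned the whole range of the knockdown arrays. Pfkfb1 had 4.43, 3.50 and 3.07 in Keap1 KD against 4.38, 4 and 2.65 in Keap1 Control livers. Fbp1 lay at 8.88 to 9.21 in Keap1 KD and at 8.83 to 9.42 in Keap1 Control livers (difference −0.05, 95% interval −0.40 to 0.31). Khk lay at 8.13 to 8.85 in Keap1 KD and at 8.38 to 9.34 in Keap1 Control livers (−0.15, 95% interval −0.69 to 0.39). Within the 1 slide that held both groups (1 array each), Gys2 was at −0.84 and Pklr at 0.03, and within the 1 scan date (1 KD array, 2 controls) they were at 0.25 and 0.25.

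The 3 genotypes share no arrays, so the differences between their effects were tested directly. Nrf1 CKO and Nrf2 KO differed for 1 of 7 genes, Fbp1, whose change was lower in Nrf1 CKO by 0.89 (difference −0.89, SE 0.236, limma adjusted p = 0.0397), where 5.58% of all genes differed, 2.57% in this direction. Khk (−1.12, adjusted p = 0.0743), Gys2 (−2.13, adjusted p = 0.0933) and Pklr (−1.10, adjusted p = 0.16) had unadjusted p under 0.05 and did not pass. Between Nrf1 CKO and Keap1 KD limma called 0 of 7 (6.92% of all genes), with Fbp1 (−0.75, adjusted p = 0.0634) and Khk (−0.91, adjusted p = 0.119) at an unadjusted p under 0.05. Keap1 KD and Nrf2 KO gave 0 of 7 calls and 0 at an unadjusted p under 0.05 (3.09% of all genes called). Leaving out 1 of the 12 arrays in turn ended the Fbp1 call for 10 of them (adjusted p up to 0.117). It held without Nrf1 Control replicate 3 (adjusted p = 0.0374) and without CKO replicate 1 (adjusted p = 0.0135). It was lost after quantile normalization (−0.48, adjusted p = 0.0825), after scaling to the array median (adjusted p = 0.129), without a filter on dim probes (adjusted p = 0.109) and when slide (adjusted p = 0.263) or scan date (adjusted p = 0.0773) was a block.

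Levels of some members varied together across arrays, within groups as well as between them. Over the 18 arrays the Pearson correlation of Slc2a2 with Gys2 was 0.873 for the levels and 0.853 for the deviations from the group means, and Gys2 was the gene most like Slc2a2 of the 12834 compared. Both were low on Nrf1 CKO replicates 2 and 3, Keap1 KD replicate 1 and Keap1 Control replicate 2. Fbp1 correlated with Khk (0.945 for levels, 0.879 for deviations), and Pygl with Khk (0.882 and 0.967). Gys2 and Pfkfb1 did not vary together (−0.0974 and −0.121). These coefficients describe arrays that share genotype, slide and scaling.

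**Figure D3:**
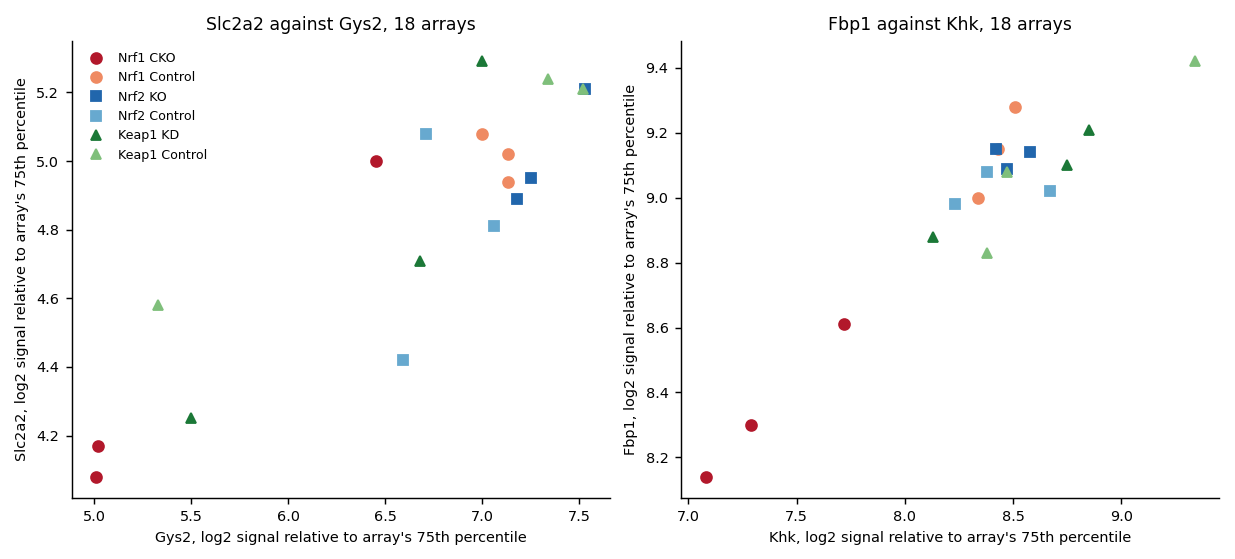
Slc2a2 against Gys2 (left) and Fbp1 against Khk (right) on the 18 arrays, both axes in log2 signal scaled to the array's 75th percentile, coloured by group. On the left the 4 arrays with Gys2 at 5.50 or below are 2 Nrf1 CKO, 1 Keap1 KD and 1 Keap1 Control array, and on the right the 3 Nrf1 CKO arrays are the lowest for both genes.

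The genes most like each member over the 18 arrays were found in the same way, with the correlation of levels first and of deviations second. Gys2 was closest to the uridine phosphorylase gene Upp2 (0.944 and 0.952), the kinase gene Dclk3 (0.932 and 0.931) and the exchange factor gene Ngef (0.925 and 0.89). After Gys2, Slc2a2 was closest to Angel2 (0.872 and 0.908) and Tmtc2 (0.858 and 0.885). Fbp1 was closest to Fmc1 (0.967 and 0.945), the glycine methyltransferase gene Gnmt (0.967 and 0.86) and the peroxisomal membrane protein gene Pxmp2 (0.964 and 0.935). Khk followed Mpnd (0.952 and 0.861), Gchfr (0.952 and 0.887) and Chchd3 (0.95 and 0.961), and Pklr followed Dmac2 (0.925 and 0.856), Mtarc2 (0.922 and 0.845) and Cisd1 (0.916 and 0.835). Pygl was closest to Cd302 (0.906 and 0.901), albumin (Alb, 0.896 and 0.831) and antithrombin (Serpinc1, 0.895 and 0.934). For Pfkfb1 the closest were Nucks1 (0.865 and 0.833), Zfp326 (0.861 and 0.848) and Ndufa11 (0.845 and 0.896).

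The wider network of carbohydrate genes moved mostly downward in Nrf1 CKO. Of 107 listed genes 99 were tested, of which 22 fell and 5 rose in Nrf1 CKO (median −0.44). Over all genes 10.9% fell and 7.99% rose (median −0.09), and among genes of like level to the members 11.2% to 39.6% fell. Gluconeogenesis had 5 of 12 tested genes lower and 1 higher (median −0.74), and the regulators had 7 of 21 lower and none higher (median −0.66). Glycolysis and pyruvate use had 5 of 30 lower and 2 higher (median −0.40), glycogen metabolism 3 of 20 lower and 1 higher (median −0.32), and fructose, sorbitol and galactose use 2 of 8 lower and 1 higher (median −0.44). None of the 8 carriers of sugars and lactate passed (median −0.20), with 1 at an unadjusted p under 0.05. After quantile normalization 6 genes of the network fell and 6 rose, with slide as a block 0 passed, and leaving out 1 array gave 5 to 39 calls, the fewest without CKO replicate 3.

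**Figure D4:**
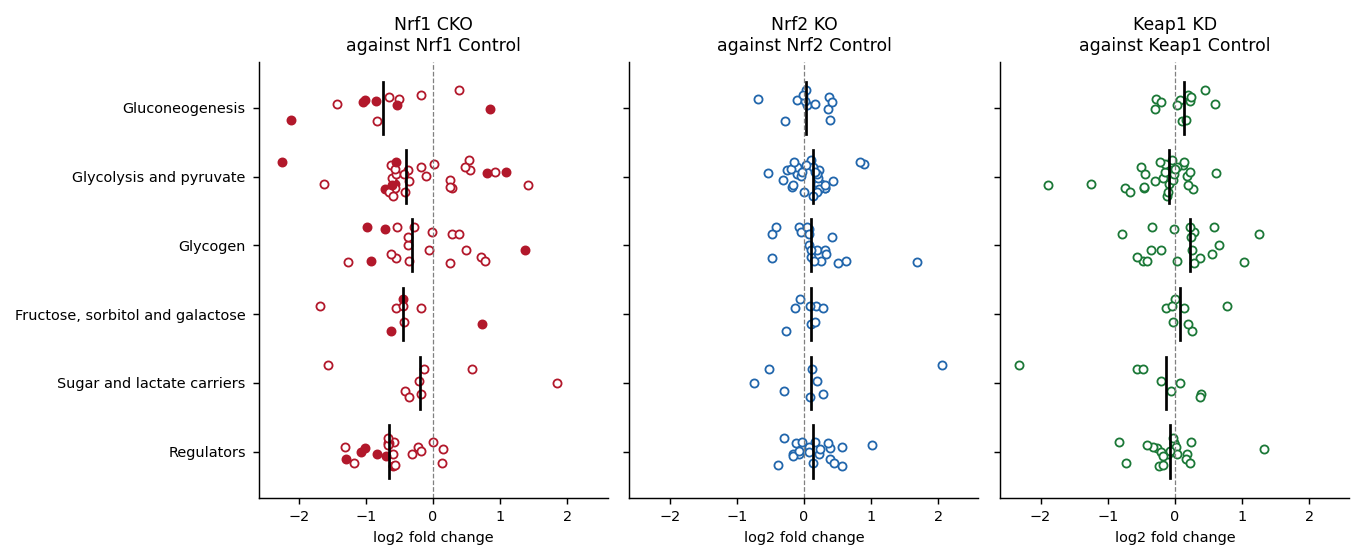
Log2 fold changes of the 99 tested genes of the wider carbohydrate network, by sublist (rows), in Nrf1 CKO, Nrf2 KO and Keap1 KD, each against its own control; filled points passed limma's test at an adjusted p under 0.05 and black bars are medians. Filled points appear in the Nrf1 panel, with Pdk1 at −2.25 and Sds at −2.12 farthest to the left and Pygb at 1.37 farthest to the right.

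The largest called changes were in Pdk1, a kinase that restrains pyruvate dehydrogenase, at −2.25 (SE 0.344, limma adjusted p = 0.00128), and in the serine dehydratase gene Sds, at −2.12 (SE 0.457, limma adjusted p = 0.00721). Pdk1 lay at −0.08 to 1.59 in Nrf1 CKO and at 2.61 to 3.32 in Nrf1 Control livers, without overlap. Pygb, the brain form of glycogen phosphorylase, rose by 1.37 (SE 0.304, limma adjusted p = 0.00825). Its liver counterpart Pygl, at −0.49, did not pass and stood at the median of the genes of like level. The insulin receptor gene Insr fell by 1.29 (limma adjusted p = 0.00367), as did the transcription factor genes Cebpb (−1.07, adjusted p = 0.0276) and Foxo1 (−1.02, adjusted p = 0.0341), which act on gluconeogenic genes. Lpin2, a phosphatidate phosphatase placed in the gluconeogenesis list, fell by 1.05 (limma adjusted p = 0.0314). Pfkfb4, a relative of Pfkfb1, rose by 1.09 (limma adjusted p = 0.0314). Of 21 alternatives the calls of Foxo1 and Lpin2 held in 11 each (adjusted p up to 0.343 and 0.335) and those of Cebpb and Pfkfb4 in 13 each (up to 0.445 and 0.293). All 4 were lost without a filter on dim probes, without Nrf1 Control replicate 1 and without CKO replicate 2 or 3. The calls of Foxo1, Lpin2 and Cebpb were also lost without Nrf1 Control replicate 2, and those of Foxo1, Lpin2 and Pfkfb4 without Nrf1 Control replicate 3. Those of Pdk1, Insr, Sds and Pygb held in 18 to 20, and Pygb was lost without CKO replicate 3.

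Among other core genes, values that missed the threshold were seen for pyruvate carboxylase, Pcx (−0.84, adjusted p = 0.0573), for the coactivator gene Ppargc1a (−1.31, adjusted p = 0.0562), for Mlxipl, which encodes ChREBP (−0.58, adjusted p = 0.132), and for the glucose phosphatase gene G6pc (−0.50, adjusted p = 0.338). Pdk4, a fasting-responsive kinase of pyruvate dehydrogenase, was at 1.42 (SE 0.876, limma adjusted p = 0.266). Ppargc1a passed in 7 of 21 alternatives, among them scan date as a block (adjusted p over all alternatives from 0.000398 to 0.536). Pcx passed in 4 of 21, Mlxipl in 2 and Pdk4 in 1.

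The same network gave 0 calls in Nrf2 KO (9 of 99 at an unadjusted p under 0.05, median 0.10), where 0.0621% of all genes were called. It also gave 0 in Keap1 KD (10 of 99, median −0.02), where 5.52% were. Ppargc1a lay at 2.28 to 2.89 in Nrf2 KO and at 1.90 to 2.06 in Nrf2 Control livers (0.56, limma adjusted p = 0.79). In that line G6pc was at −0.69, Pcx at −0.28, Foxo1 at 0.39, Pdk4 at 0.31 and Mlxipl at 0.17 (adjusted p from 0.604 to 0.954). Mlxipl lay at 3.68 to 4.39 in Keap1 KD and at 4.79 to 5.08 in Keap1 Control livers, without overlap, and the difference of −0.83 did not pass (SE 0.262, limma adjusted p = 0.0832). Pdk4 was at −1.89 (adjusted p = 0.289) in Keap1 KD, with the KD arrays spread over more than 2 log2 units. Leaving out 1 array gave −3.23 to −1.18, and it passed without KD replicate 1 (−3.23, adjusted p = 0.0157). In the same line G6pc, Foxo1, Ppargc1a and Pcx were at −0.28, −0.26, −0.32 and 0.11.

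Some markers of cell types and liver zones also moved with the Nrf1 groups. Over all genes limma called 10.9% lower and 7.99% higher in Nrf1 CKO. Gluconeogenesis is known to be stronger near the portal vein and glycolysis near the central vein. Of 7 periportal hepatocyte markers tested 6 fell in Nrf1 CKO (median −1.38), among them Gls2 (−2.38) and Sds, which the gluconeogenesis list also holds. Their summed level was 8.33 to 9.29 on the CKO arrays and 9.78 to 10.14 on the Nrf1 Control arrays, without overlap. Of 9 pericentral markers 1 fell (Rgn, −0.72), with a median of −0.07 and summed levels of 9.54 to 10.02 in CKO and 9.86 to 10.30 in Nrf1 Control livers.

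Of 7 general hepatocyte markers 3 fell (Tat, Hpd and Tdo2). The others did not pass, with Alb at −0.48, Apoa1 at −0.42, Hnf4a at −0.23 and Ttr at 0.20. Among genes of like level to Fbp1, Gys2, Khk and Pygl, 35.2% to 39.6% fell. Summed levels of the 7 hepatocyte markers were 10.27 to 10.85 in CKO and 11 to 11.26 in Nrf1 Control livers. Stellate cell markers rose for 7 of 8 (7.99% of all genes rose), with summed levels of 6.89 to 7.38 in CKO and 6.28 to 6.69 in Nrf1 Control livers. The stellate sums were 7.04 to 7.41 in Nrf2 Control and 6.85 to 7.01 in Keap1 Control livers. Dcn, the brightest stellate marker, did not pass (limma adjusted p = 0.126). Macrophage markers rose for 3 of 7 (Marco, Trem2 and Gpnmb, the last above background on 0 Nrf1 Control arrays). Adgre1 (0.03), Clec4f (0.12), Csf1r (0.19) and Vsig4 (0.60) did not pass. Summed levels of the macrophage markers overlapped, at 6.25 to 8.07 in CKO and 5.75 to 6.67 in Nrf1 Control livers. Of 6 sinusoidal endothelium markers 1 fell, of 4 lymphocyte markers 1 rose, and of 5 cholangiocyte markers 0 passed. In whole liver, fewer hepatocytes, less RNA per hepatocyte and the lower scaled signal of bright genes in general cannot be told apart. The part of these markers in the member results was not tested. No muscle, pancreas or adipocyte marker was above background on all 18 arrays. The 1 pancreas marker tested, Cela1, lay at −3.24 to −2.63 on the Nrf1 CKO arrays and at −4.24 to −3.94 on the Nrf1 Control arrays, of which 1 was above background, and passed as higher (1.22, limma adjusted p = 0.0287). It passed as lower in Keap1 KD (−1.27, limma adjusted p = 0.0485), with 1 KD array and 3 control arrays above background. The muscle marker Pygm was above background on 3 Nrf1 CKO arrays and 0 Nrf1 Control arrays (limma adjusted p = 0.0822). Spots of any kind were above background more often on the CKO arrays (24962 to 26080) than on the Nrf1 Control arrays (22694 to 23725). Both markers lay near background, and admixed tissue was not tested.

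**Figure D5:**
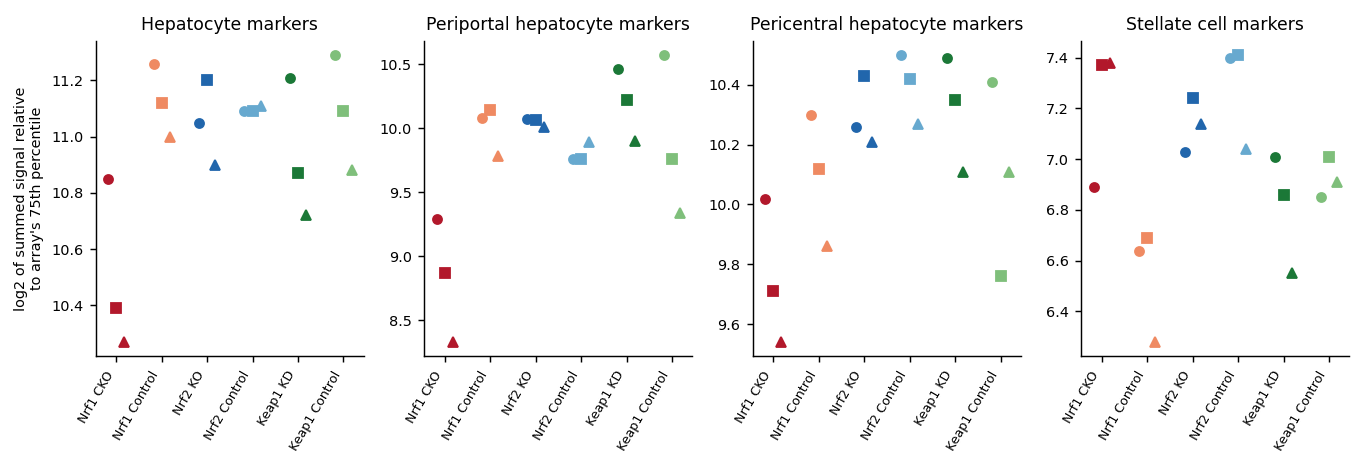
Summed level of the tested hepatocyte, periportal, pericentral and stellate cell markers on each array (vertical axes, log2 of the summed signal scaled to the array's 75th percentile, a separate range for each panel; horizontal axis, the 6 groups). The periportal sums of the 3 Nrf1 CKO arrays, 8.33 to 9.29, lie below those of all other arrays, while the pericentral sums of Nrf1 CKO (9.54 to 10.02) and Nrf1 Control (9.86 to 10.30) overlap.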

How the data were processed

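Total RNA of 18 liver samples was labelled with Cy3 and hybridized to single-colour Agilent arrays, per the labels. The deposited processed signal intensities, the deposited median signal and background intensities and the flags, which are other output of the scanner software, come from Agilent Feature Extraction 10.7.3.1, per the file headers. The authors' series table held the same intensities at all 810324 entries compared.

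The log2 signals of non-control, non-outlier spots were averaged per probe and scaled to each array's 75th percentile. A probe was kept if it was well above background on each of the 3 arrays of any group, and the brightest probe stood for a gene. With limma 3.58.1 in R 4.3.3, 6 group means were estimated from 18 arrays (12 residual and 3.07 prior degrees of freedom), with Benjamini-Hochberg adjustment over all 17721 genes and a threshold of 0.05. Symbols came from RefSeq accessions (assembly GRCm38.p6), and coordinates are given only with the promoter sequences, since the headers name another build. The script was tested on simulated data.

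Named were all members, 6 further genes in every comparison (Foxo1, G6pc, Mlxipl, Pcx, Pdk4 and Ppargc1a; other genes of this rule are not reported here), the 8 called genes of the wider network with the largest change, and the 3 genes most like each member. The members and lists were chosen with earlier results of these data known. Alternatives covered scaling, background, filters, probes, weights, blocks and left-out arrays. They also included the authors' series table, which held the same intensities and so repeats the main result in every count of alternatives.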

Additional observations from a re-analysis of the deposited data

Results flagged for a closer look

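The effect of Nrf1 CKO on Fbp1 differed from that of Nrf2 KO by −0.89 on the log2 scale (SE 0.236, limma adjusted p = 0.0397 over all genes), the 1 member for which a test of the difference between 2 genotypes passed. All 3 Nrf1 CKO arrays lay below all 3 Nrf1 Control arrays, as was the case for 28.1% of all genes in that direction. All 3 Nrf2 KO arrays lay above all 3 Nrf2 Control arrays, as was the case for 9.81% of all genes in that direction. The Nrf2 KO effect itself was 0.10 and did not pass (limma adjusted p = 0.912). No slide or scan date held both Nrf2 groups, so that batch and genotype cannot be told apart within that line. Over the alternatives the difference between the Nrf1 CKO and Nrf2 KO effects ran from −1.28 to −0.48, with adjusted p from 0.00122 to 0.263. It passed in 12 of 27, a count that includes the authors' series table with the same intensities as the main fit. Before scaling, the Fbp1 intensity was 109000 to 119000 on the Nrf1 CKO arrays and 120000 to 129000 on the Nrf1 Control arrays.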

How the results depend on the processing

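Direction was stable in Nrf1 CKO: over 21 or 22 alternatives for each of the 7 members, no log2 fold change turned positive, although Pygl reached −0.02 after quantile normalization and 0.00 after normexp. Calls were less stable, with Fbp1 passing in 19 of 21, Khk in 18 of 22 and Gys2 in 10 of 21. These counts include the authors' series table, which held the same intensities and could only repeat the main result. Averaging probes could not change the values of Fbp1 or Gys2, for which no other probe was measured. The number of members called in Nrf1 CKO was 1 after quantile normalization, 7 with array quality weights, 0 with slide as a block and 1 to 4 with 1 array left out. The number differing between Nrf1 CKO and Nrf2 KO was 0 after quantile normalization, after scaling to the array median, without a filter on dim probes and with slide as a block, 4 with the arrays of these lines alone, 5 with array quality weights and 0 to 3 with 1 array left out. Between Nrf1 CKO and Keap1 KD it was 1 after scaling to the array median, 2 with array quality weights and 0 to 3 with 1 array left out.

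Over all genes, calls in Nrf1 CKO numbered 2117 without the filter, 8165 with array quality weights, 65 with slide as a block and 939 to 4160 with 1 array left out. In Nrf2 KO they numbered 22 after scaling to the array median, 6 with the arrays of the line alone, 21 with an intensity trend, 75 with array quality weights, 5 with the replicate block, 7 with scan date as a block and 6 to 12 with 1 array left out. In Keap1 KD they numbered 555 after quantile normalization, 504 after normexp, 615 without the filter, 439 with probes above background on all arrays, 52 with the arrays of the line alone, 248 with array quality weights, 636 with the replicate block, 55 when slide and 255 when scan date was a block, and 350 to 1048 with 1 array left out. The higher share of the called genes in Nrf1 CKO was 42.3%, 55.1% after quantile normalization, 35.3% after scaling to the array median and 53.8% after normexp. In Keap1 KD it was 17.2%, 27.4%, 48.8% and 27.6% in the same order.

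Signs that turned were all of values that passed under neither setting. In Keap1 KD, scaling to the array median gave Pklr 0.24, Fbp1 0.25, Slc2a2 0.03, Pygl 0.17, Pfkfb1 0.28, Khk 0.14, G6pc 0.01 and Foxo1 0.03. Slide as a block gave Pklr 0.28, Fbp1 0.08, Pfkfb1 0.26, Khk 0.00, Foxo1 0.07 and Ppargc1a 0.04 there, and scan date as a block gave Pklr 0.39, Fbp1 0.03, Gys2 0.21, Pfkfb1 0.06 and Foxo1 0.01. Pcx was there −0.01, −0.05 and −0.13 after quantile normalization, normexp and array quality weights. With 1 array left out, Keap1 KD gave Pklr −0.40 to 0.43, Fbp1 −0.19 to 0.11, Gys2 −1.04 to 0.11, Pygl −0.26 to 0.07, Pfkfb1 −0.53 to 0.34, Khk −0.33 to 0.15, Pcx −0.28 to 0.36, Foxo1 −0.50 to 0.03 and Ppargc1a −0.56 to 0.12. In Nrf2 KO, slide as a block gave Pygl 0.24, Pfkfb1 0.09 and Pdk4 −0.42, and scan date as a block gave Pygl 0.25, Pfkfb1 0.30, Pcx 0.03 and Pdk4 −0.32. With 1 array left out, Nrf2 KO gave Khk −0.03 to 0.19 and Pdk4 −0.10 to 0.64.

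Replicate numbers were not used as pairs in the main fit. Same-numbered arrays had correlations of their deviations of 0.0162 to 0.179 in the Nrf1 line, where differently numbered arrays had −0.224 to 0.148. In the Nrf2 line these were −0.0966 to 0.0438 and −0.0737 to 0.068, and in the Keap1 line −0.374 to 0.198 and −0.436 to 0.39. These few values do not settle whether the numbers mark pairs. With the replicate block Gys2 lost its call (adjusted p = 0.0911). Scaling moved the median of all genes by over 0.1 in 2 comparisons, to −0.20 in Nrf1 CKO and 0.29 in Keap1 KD after scaling to the array median. The cause of these changes was not tested.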
